A study of Mus musculus with 6 samples.

Results

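The regions described are the telomere-proximal ends of the mouse autosomes: the last 10 Mb of chromosomes 1 to 19, counted inward from the end of the last mapped fragment of each. They were chosen by position alone. Bins of 100 kb lying in these windows were kept when at least 50% of their length was covered by fragments. This gave 1881 of 23940 autosomal bins, 95 to 100 on each chromosome, and the other 22059 bins are called the rest. Of 1900 bins on the grid of these windows 19 were left out, among them 1 with no fragment. Of the bins kept, 1849 were covered over at least 95% of their length and 18 over 50 to 80%. Coordinates are in the mm9 build.

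Contact with the nuclear lamina was measured by DamID in mouse embryonic fibroblasts (MEFs), cultured connective tissue cells, of the wild type C57BL/6 strain. Every culture received lentiviral shRNA, puromycin selection and then a lentivirus carrying Dam alone or Dam fused to a lamin. The 3 maps were LmnA RNAi with Dam-LmnB1, LmnC RNAi with Dam-LmnB1, and LmnB1 RNAi with Dam-LmnA. The LmnB1 target of the third map is given by the sample descriptions, whereas the treatment protocol names shRNA for the other two lamins only. Each map came from 1 fusion and 1 Dam-only library. There were thus no replicates and no p-values, no map of cells free of shRNA was analysed here, and whether each lamin was lost could not be checked without RNA or protein values. The first 2 maps share their fusion. In any comparison with the LmnB1 RNAi map, the targeted lamin and the fusion cannot be told apart. SDs over chromosomes and standard errors (SE) over fragments describe variation along the genome within a map and are not errors between cultures.

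In DamID the bacterial methylase Dam is tethered to a lamin and marks GATC sites in chromatin that touches the nuclear lamina, the filament layer under the inner nuclear membrane. Long regions with a high fusion over Dam-only ratio are lamina-associated domains (LADs), which are commonly gene-poor and little transcribed. Lmna gives rise to lamins A and C by alternative splicing, while lamin B1 has a gene of its own, Lmnb1. Mouse chromosomes have their centromere close to one end, so the far end of each is a long-arm telomere and the near end is pericentromeric. In cultured mammalian cells, telomeres are found both in the nuclear interior and at the periphery.

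The promoters of a pair of genes from opposite kinds of end show the sites that the method reads. Adcyap1 encodes the neuropeptide PACAP and is among the 8 outermost protein-coding genes of chromosome 17, whose end was among the richest in LADs. Itgb1 encodes integrin beta 1, a fibroblast adhesion receptor, and is among the 8 outermost of chromosome 8, whose end was the poorest. Both were chosen after the values were seen. The sequences are from RefSeq on GRCm38.p6, a later build than that of the maps, so neither gene was placed in a bin or a LAD. Adcyap1 is at chr17:93198918-93199217 and Itgb1 at chr8:128685404-128685703, both on the + strand, from 250 bases before the gene's start to 50 after it. They are printed 5′ to 3′ with each GATC, the same on both strands, in capitals.
Adcyap1: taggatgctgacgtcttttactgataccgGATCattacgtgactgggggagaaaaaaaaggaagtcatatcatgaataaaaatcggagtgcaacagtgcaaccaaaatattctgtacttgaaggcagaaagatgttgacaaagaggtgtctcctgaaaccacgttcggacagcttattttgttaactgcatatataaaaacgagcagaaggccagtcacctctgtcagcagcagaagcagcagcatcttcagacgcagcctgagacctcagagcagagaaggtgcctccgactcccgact
Itgb1: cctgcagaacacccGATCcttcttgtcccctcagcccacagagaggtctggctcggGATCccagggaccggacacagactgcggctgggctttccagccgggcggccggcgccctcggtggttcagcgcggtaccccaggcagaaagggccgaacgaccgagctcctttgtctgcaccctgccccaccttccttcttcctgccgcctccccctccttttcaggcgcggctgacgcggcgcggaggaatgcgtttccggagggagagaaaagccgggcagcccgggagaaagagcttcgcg
The Adcyap1 promoter holds 1 GATC and has 45.7% G and C, and the Itgb1 promoter holds 2 GATC and has 67.3% G and C. Of 152 such outermost genes, 120 matched a promoter entry, and 49.0% of their 145 promoters held a GATC, against 47.7% of all 31396 autosomal promoters of the same length. A match says only that the letters are there.

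Over all autosomes, the last 10 Mb held somewhat less LAD sequence than the rest in each map. After LmnA RNAi, LADs held 61.1% of fragment length in the last 10 Mb and 67.3% in the rest, a difference of -6.18 percentage points. After LmnC RNAi the shares were 54.0% and 58.0%, a difference of -4.06 points. After LmnB1 RNAi they were 52.9% and 59.1%, a difference of -6.15 points. These differences were smaller than their spread over chromosomes, whose SD was 19.5, 18.1 and 18.4 points in the same order of maps (n = 19). Chromosome 8 carried a large portion of them: without it the differences were -3.36, -1.63 and -3.73 points. The end was the LAD-richer portion on 9, 8 and 7 chromosomes. On 5 chromosomes (2, 3, 14, 17 and 18) it was richer in all 3 maps, on 9 poorer in all 3, and on 5 (1, 6, 7, 10 and 12) the maps differed in direction.

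The ends differed more among themselves than the rest of the chromosomes did. After LmnA RNAi the LAD share of the last 10 Mb ran from 14.1% to 86.3% over the 19 autosomes (SD 19.2), against 54.7% to 73.7% in the rest (SD 5.0). After LmnC RNAi it ran from 13.8% to 81.5% (SD 17.5), against 47.1% to 62.8% in the rest (SD 4.23). After LmnB1 RNAi it ran from 12.8% to 80.8% (SD 17.7), against 47.7% to 64.4% in the rest (SD 4.60). A 10 Mb window averages over far less sequence than the rest of a chromosome, and the part this plays in the wider spread was not tested. Set among all 10 Mb windows of its own chromosome, the end had the lowest LAD share on chromosome 8 in all maps, and on no other chromosome. It had the highest share on chromosome 17 in each map, and on chromosome 18 after LmnC and LmnB1 RNAi.

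**Figure D1:**
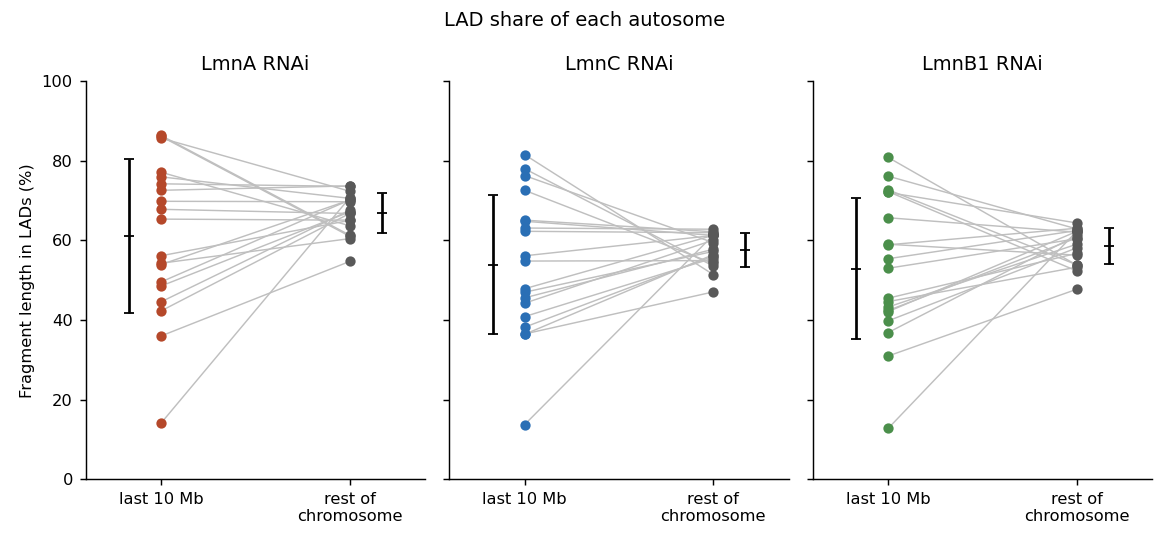
Share of fragment length in LADs (%, from 0 to 100) in the last 10 Mb and in the rest of each autosome, 1 panel per map. Points are chromosomes, grey lines join the 2 values of a chromosome, and bars give the mean and SD over 19 chromosomes; the points of the last 10 Mb spread about 4 times as widely as those of the rest, and the lowest is chromosome 8.

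Chromosome 18 had the end richest in LADs (chr18:80800001-90770907). LADs held 86.3%, 81.5% and 80.8% of it in the LmnA, LmnC and LmnB1 RNAi maps, against 61.3%, 51.4% and 53.8% of the rest of the chromosome. Its mean log2 ratio of fusion over Dam-only was 1.89 ± 0.04, 1.22 ± 0.03 and 1.43 ± 0.03 in these maps (SE over fragments). The end of chromosome 3 (chr3:149600001-159599436) was the next, with 85.7%, 76.3% and 76.1% in LADs, against 72.3%, 59.4% and 62.9% of the rest. The end of chromosome 17 (chr17:85300001-95272648) had 86.1%, 78.0% and 72.2%, against 61.0%, 53.6% and 52.3% of the rest. The order of these 3 ends depended on the map, and after LmnA RNAi their shares lay within 1 point of each other. Chromosome 2 followed with 77.1%, 72.6% and 72.7%. Here the LADs lay mostly inward, since its outermost 2 Mb held 50.5%, 47.4% and 46.0%.

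Chromosome 8 was at the other extreme (chr8:121800001-131738780). In the LmnA, LmnC and LmnB1 RNAi maps, LADs held 14.1%, 13.8% and 12.8% of its end, against 70.7%, 61.3% and 62.3% of the rest. The mean log2 ratio there was -1.63 ± 0.03, -2.49 ± 0.04 and -1.73 ± 0.03 (SE over fragments), against 0.87, -0.12 and 0.35 in the rest of the chromosome. With fragments read in 1 library only left out, it was -1.07, -1.20 and -0.93, against 0.23, -0.086 and 0.022 in the rest. The gap to the rest was then -1.29, -1.11 and -0.95, in place of -2.50, -2.37 and -2.08, so it kept its direction and rested in part on those fragments. Chromosome 11 (chr11:111900001-121843411) had 36.0%, 36.5% and 31.0% of its end in LADs, against 54.7%, 47.1% and 47.8% of the rest, and the rest of this chromosome was also the LAD-poorest of the 19. Chromosome 15 (chr15:93500001-103494971) had 44.6%, 38.2% and 43.3%, against 67.6%, 56.1% and 59.1% of the rest.

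By the mean of maps the other ends fell between these, though in single maps some lay below chromosome 11 or 15. Those of chromosomes 4, 5, 9, 13, 16 and 19 had 42.3% to 56.1% of their length in LADs in the LmnA RNAi map, 36.4% to 47.9% in the LmnC RNAi map and 36.9% to 45.5% in the LmnB1 RNAi map, each below the rest of its chromosome in all maps. Those of chromosomes 1, 6, 7, 10, 12 and 14 had 65.3% to 75.9%, 54.8% to 65.1% and 53.0% to 72.0% in the same order. Among these, the end of chromosome 14, richer than the rest in all maps, had 74.2%, 63.1% and 72.0%, against 73.6%, 62.8% and 64.4% in the rest. Its excess was thus only 0.63 and 0.30 points after LmnA and LmnC RNAi. In mean log2 ratio this end was the lower in every map, differing from the rest by -0.10, -0.27 and -0.12. On chromosome 1 the maps parted, with 75.9% at the end after LmnA RNAi against 70.6% in the rest, 56.1% against 61.2% after LmnC RNAi, and 58.9% against 63.0% after LmnB1 RNAi. Most ends had their largest share after LmnA RNAi, as the whole maps did. On chromosomes 5 and 11 the LmnC RNAi share was the higher one, on chromosome 5 with 42.3% in the LmnA and 45.6% in the LmnC RNAi map.

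**Figure D2:**
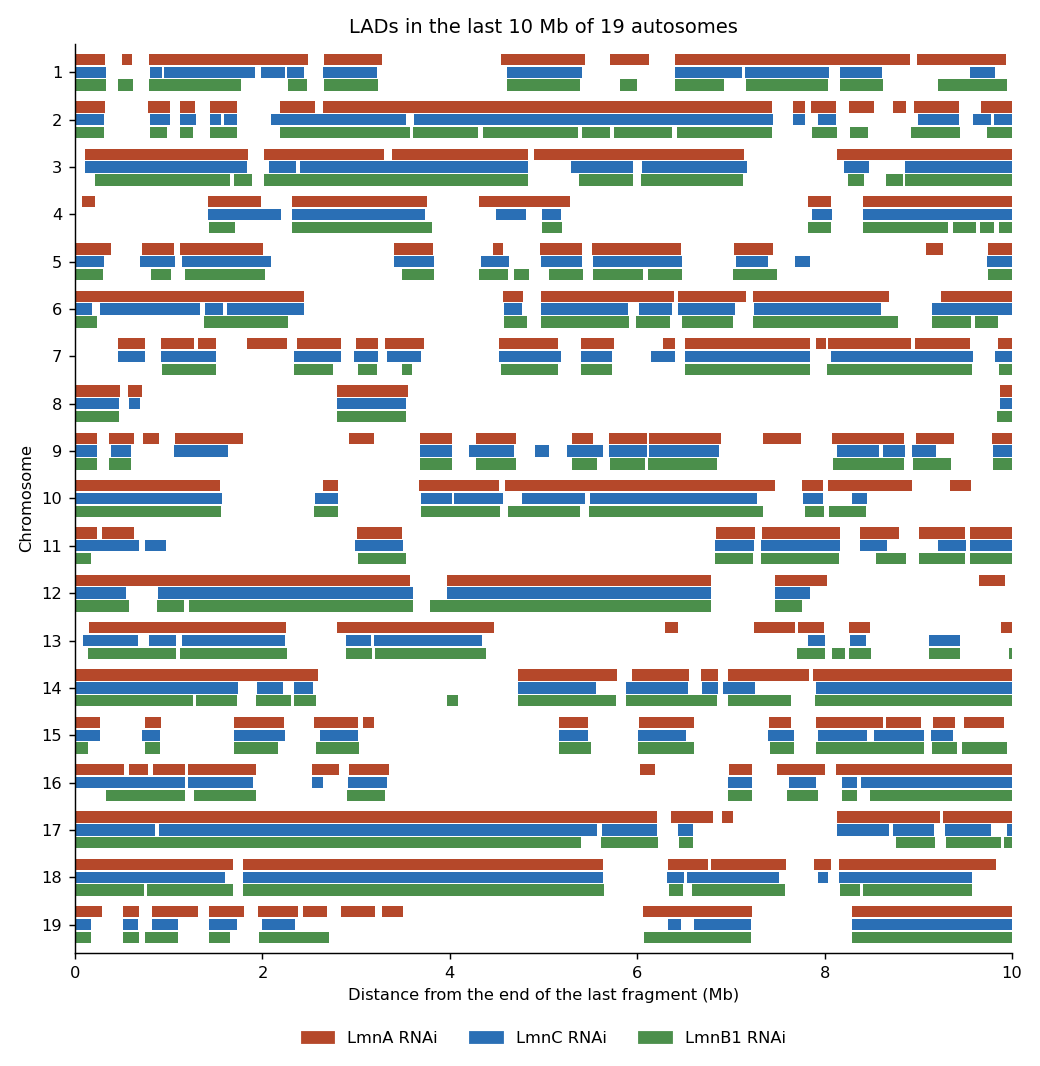
LADs of each map in the last 10 Mb of the 19 autosomes, drawn by distance from the end of the last fragment (Mb, 0 at the left). Each chromosome has 3 rows, LmnA RNAi above LmnC RNAi above LmnB1 RNAi; the long bars on chromosomes 17 and 18, the near-empty row of chromosome 8 and the short LADs touching distance 0 on most chromosomes are the features described in the text.

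The log2 ratio, averaged over each bin with fragments weighted by length, gave a similar picture. After LmnA RNAi it averaged 0.43 in the last 10 Mb and 0.68 in the rest, a difference of -0.25. After LmnC RNAi it averaged -0.49 and -0.30, a difference of -0.20, and after LmnB1 RNAi -0.017 and 0.22, a difference of -0.24. The SD of the difference over chromosomes was 0.96, 0.99 and 0.82, several times its size. Without chromosome 8 the differences were -0.13, -0.076 and -0.14, within quartiles of fragments per bin they were -0.14, -0.072 and -0.14, and without fragments read in 1 library only -0.12, -0.086 and -0.099. By this measure the end was lower than the rest in all maps on 12 chromosomes, among them chromosome 14, and higher in all maps on 5 (2, 3, 12, 17 and 18). Single bins of the ends ran from -4.88 to 5.06, from -5.53 to 3.80 and from -4.46 to 3.85 in these 3 maps. Their SD over bins was 2.18, 2.25 and 1.90, against 2.04, 2.21 and 1.87 in the rest. Zero has no fixed meaning across maps, because each map carries its own additive constant.

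Set against the sequence beside them, the last 10 Mb were about as rich in LADs. Going inward in 10 Mb windows, LADs held 61.1%, 60.9% and 62.0% of the first 3 windows after LmnA RNAi, and 65.8% of the fourth. After LmnC RNAi they held 54.0%, 52.0%, 51.3% and 57.4%, and after LmnB1 RNAi 52.9%, 52.9%, 54.0% and 57.1%. The outermost 3 windows were thus close to each other in every map. Against only the sequence 10 to 30 Mb from the end, the log2 ratio of the last 10 Mb was higher by 0.066, 0.087 and 0.033 in the LmnA, LmnC and LmnB1 RNAi maps, so the direction turned, and the LAD share differed by -0.35, 2.28 and -0.54 points. Pooled over autosomes, the opposite, centromere-proximal ends were the LAD-richer ones: the first 10 Mb (1891 bins) had 74.7%, 63.6% and 65.2% in LADs in these maps. This did not hold on every chromosome. The last 10 Mb were the LAD-richer end on chromosomes 17 and 18 in all maps. They were so too on chromosomes 2, 10, 12 and 15 after LmnC and LmnB1 RNAi, and on chromosome 19 after LmnA and LmnB1 RNAi. On either side of the 10 Mb limit the log2 ratios differed by about as much as ends and rest did. The 94 bins just inside it averaged 0.60, -0.39 and 0.17 in log2 ratio, with 68.2%, 53.8% and 60.2% in LADs, and the 95 bins just outside averaged 0.83, -0.14 and 0.34, with 66.8%, 63.8% and 61.7%. The LAD share stepped most after LmnC RNAi.

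Within the last 10 Mb, the LAD share was highest in the outermost 2 Mb after LmnA and LmnC RNAi, while after LmnB1 RNAi the innermost 1 Mb step was the highest. In steps of 1 Mb from the end inward, the LAD share after LmnA RNAi was 73.4%, 71.8%, 56.6%, 56.5%, 47.1%, 56.4%, 60.0%, 55.0%, 66.6% and 68.6%. After LmnC RNAi it was 68.7%, 66.4%, 51.8%, 51.7%, 44.7%, 52.0%, 53.1%, 42.7%, 51.7% and 57.5%. After LmnB1 RNAi the outer steps stood out less, with 57.6%, 58.1%, 49.8%, 51.3%, 45.0%, 51.1%, 53.9%, 44.3%, 53.7% and 64.9%. All 3 profiles thus fell at about 2 Mb and rose again toward 10 Mb. Each step joins 19 chromosomes that differ widely, with an SD over chromosomes between 25.7 and 40.8 points after LmnA RNAi. A drop as deep lay outside the windows, at 14 to 16 Mb, where the LmnA RNAi share was 43.4% and 41.2%.

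**Figure D3:**
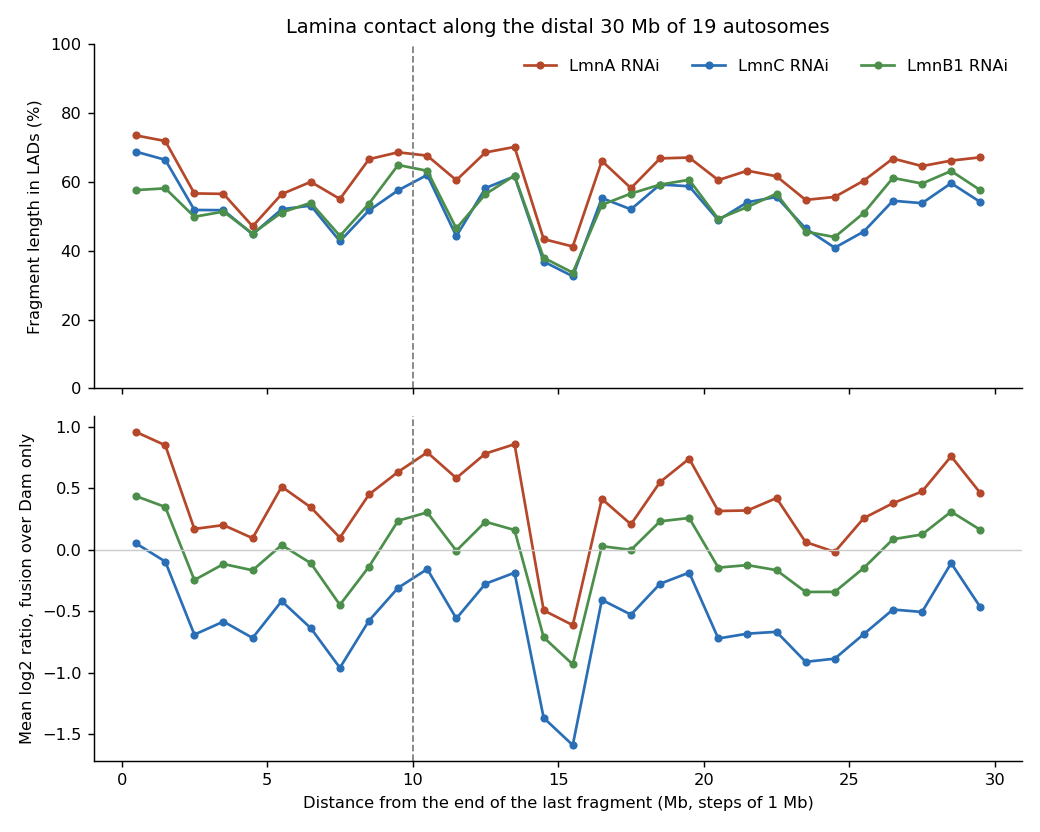
LAD share (%, upper panel) and mean log2 ratio of fusion over Dam-only (lower panel) in steps of 1 Mb, against distance from the end of the last fragment (Mb), over 19 autosomes. Each point is 1 step in 1 map and the dashed line marks 10 Mb; the LAD share of the LmnA and LmnC RNAi maps is high in the first 2 steps, near 70%, and the lowest points of all maps lie between 14 and 16 Mb.

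The outermost 2 Mb (371 bins) had 72.6% of their length in LADs after LmnA RNAi, and the next 8 Mb (1510 bins) 58.3%. After LmnC RNAi the shares were 67.5% and 50.6%, and after LmnB1 RNAi 57.9% and 51.7%. The differences were 14.3, 16.9 and 6.15 points, below their SD over chromosomes of 24.6, 24.2 and 27.2 points, and the outermost 2 Mb were the higher on 14, 16 and 12 of 19 chromosomes. The log2 ratio differed by 0.59, 0.59 and 0.51, below its SD over chromosomes of 1.33, 1.20 and 1.10. By this measure the outermost 2 Mb were the higher on 13, 12 and 12 of 19 chromosomes. The LmnB1 RNAi map was thus close to the other 2 in log2 ratio, though within a wide spread. When a bin was instead counted as in contact by a cut-off on its log2 ratio that kept the LAD share of the map, the difference after LmnB1 RNAi was 10.6 points in place of 6.15.

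Near the ends, the LAD lists and the ratios of the LmnC and LmnB1 RNAi maps departed from each other in opposite ways. In the outermost 2 Mb the LmnC RNAi share stood 9.66 points above that of LmnB1 RNAi (67.5% and 57.9%), while it stood 1.06 points below in the next 8 Mb and 1.04 points below in the rest. A few chromosomes carried much of this. On chromosome 6 the outermost 2 Mb had 90.5% in LADs after LmnC RNAi and 39.8% after LmnB1 RNAi, on chromosome 11 they had 44.9% and 6.60%, and on chromosome 9 they had 53.1% and 24.4%. Their mean log2 ratios were 0.14 and 0.47 on chromosome 6, -1.68 and -1.49 on chromosome 11, and -1.04 and -0.48 on chromosome 9. As deposited, the LmnC RNAi ratio was thus the lower on each, as it was over the rest of the autosomes. Without chromosome 6 the difference was 7.43 points, and without chromosomes 6, 9 and 11 it was 4.22 points. By the cut-off on the log2 ratio, 64.7% of these bins were in contact after LmnC RNAi and 62.3% after LmnB1 RNAi, a difference of 2.43 points. Bins of the outermost 2 Mb that lay mostly in LmnB1 RNAi LADs had a mean log2 ratio of 1.79 (n = 214 bins), against 1.54 in such bins of the rest (n = 13091), and 8.41% of them fell below the median bin of the map, against 16.0% in the rest. Those mostly in LmnC RNAi LADs went the other way, with 1.18 (n = 253 bins), against 1.31 in the rest (n = 12867), and 20.2% below the median bin, against 14.8%. Both shifts in the mean were small beside the SD over bins, 0.86 and 0.94 for LmnB1 RNAi and 1.15 and 1.07 for LmnC RNAi. In the next 8 Mb such bins averaged 1.435 for LmnB1 RNAi and 1.28 for LmnC RNAi, both below the rest.

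**Figure D4:**
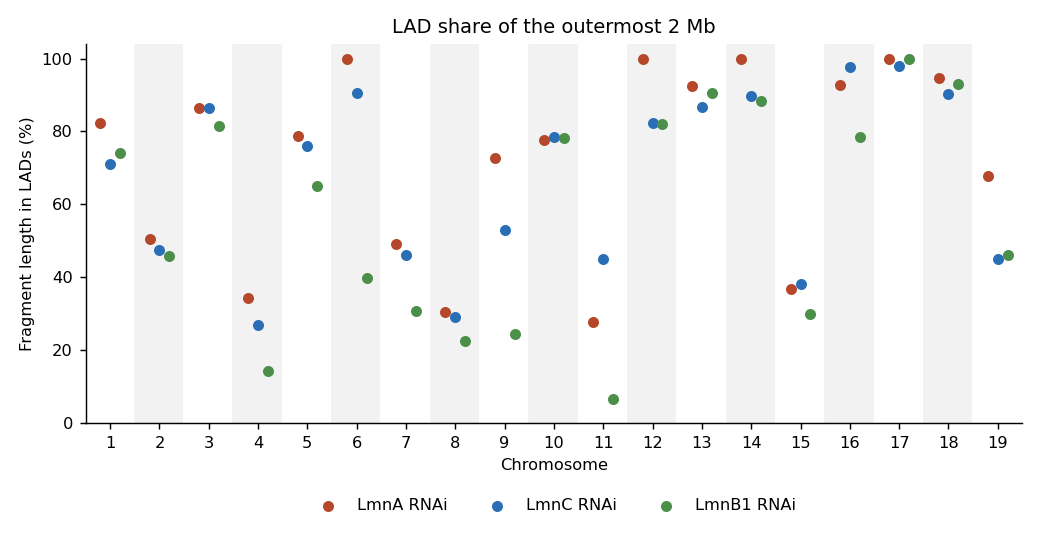
Share of fragment length in LADs (%) in the outermost 2 Mb of each autosome, 1 point per map. The maps part most on chromosome 6, where LADs fill all of it after LmnA RNAi and 39.8% of it after LmnB1 RNAi, and on chromosomes 9 and 11, while on chromosomes 10, 17 and 18 they lie within 5 points.

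A LAD ran up to the last fragment, ending within 5 kb of it, on 15, 15 and 13 of 19 chromosomes in the LmnA, LmnC and LmnB1 RNAi maps. It did so in all maps on 13 chromosomes, and in none on chromosomes 3, 4, 7 and 13. A point 50 kb inside the last fragment was in a LAD on 15, 15 and 14 chromosomes, and a point 50 kb inside the first fragment on 16, 15 and 15, while LADs held 66.8%, 57.7% and 58.6% of the autosomes as a whole. These final LADs were often short: their median length was 474, 471 and 330 kb, and the shortest measured 228, 169 and 138 kb. Their median log2 ratio was 2.18, 1.50 and 2.16. Bins lying mostly in LADs in the rest of the autosomes averaged 1.87, 1.31 and 1.54, a value that 10 of 15, 9 of 15 and 12 of 13 final LADs exceeded. These measures are unlike: a final LAD was averaged over the fragments inside it, whereas such bins can also hold sequence outside LADs. Measured by bins mostly in LADs, the outermost 2 Mb averaged 1.95, 1.18 and 1.79, so the LmnC RNAi value lay below that of the rest.

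Chromosome 8 showed a final LAD most plainly, since its near LAD-free end closed with a strong one. That final LAD measured 474 kb in the LmnA RNAi map (chr8:131264629-131738534), 471 kb with LmnC RNAi and 465 kb with LmnB1 RNAi. Its log2 ratio was 3.0 ± 0.16, 2.21 ± 0.16 and 2.95 ± 0.16 (SE over fragments), the highest of all final LADs after LmnA and LmnB1 RNAi and, with LmnC RNAi, behind those of chromosomes 2 and 10 only. Without fragments read in 1 library only it was 1.30, 1.14 and 1.13. Chromosome 2 ended in a similar short LAD of 313, 305 and 304 kb with log2 ratios of 2.87 ± 0.20, 2.69 ± 0.19 and 2.40 ± 0.17. On chromosome 17 the final LAD was instead the longest of the windows, at 6213 kb after LmnA RNAi and 5397 kb after LmnB1 RNAi, while after LmnC RNAi a short gap split it and left 850 kb at the end. Not every final LAD was strong: on chromosome 11 it measured 683 kb after LmnC RNAi with a log2 ratio of -0.13 ± 0.10, against 228 kb with 1.91 ± 0.19 after LmnA RNAi and 169 kb with 1.93 ± 0.22 after LmnB1 RNAi.

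Averaged over the 19 autosomes, the outermost bin had log2 ratios of 1.42, 0.58 and 0.84 in the LmnA, LmnC and LmnB1 RNAi maps, and the bin next to it 1.44, 0.61 and 0.93. In the fifth bin it was 0.53, -0.39 and 0.0022, in the tenth 1.02, -0.12 and 0.39, and in the bin numbered 15 from the end 1.51, 0.82 and 1.15, so the mean did not fall steadily inward. The SD over chromosomes in the outermost bin was 1.82, 2.13 and 2.08, so single ends departed widely from these means.

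LADs inside the windows were shorter than elsewhere and slightly more numerous. Those lying wholly inside numbered 141, 147 and 144 in the LmnA, LmnC and LmnB1 RNAi maps, with median lengths of 421, 377 and 418 kb, against 530, 450 and 502 kb in the rest. Windows of fixed size cut off the longest LADs, and 14, 13 and 13 more crossed the inner edge. Per 10 Mb there were 7.45, 7.77 and 7.61 LADs in the windows, against 6.85, 6.91 and 6.68 in the rest. Altogether 47.9% of the fragment length of the last 10 Mb was in LADs of all 3 maps, against 54.0% in the rest, and 36.1% was in none, against 30.5%. Sequence in LADs after LmnA RNAi alone made up 5.77%, against 7.18% in the rest. Sequence in LADs of the LmnA and LmnC RNAi maps and not of LmnB1 RNAi made up 4.21%, against 2.60%, and 10.7% of the outermost 2 Mb.

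The longest stretch in LADs of all maps was chr17:89875010-94380930 (4.51 Mb), with log2 ratios of 2.46 ± 0.05, 2.02 ± 0.05 and 2.23 ± 0.05 in the LmnA, LmnC and LmnB1 RNAi maps (SE over fragments). Next were chr18:85135265-88977717 (3.84 Mb) and chr12:114472977-117281500 (2.81 Mb), with ratios of 2.52 and 2.66 after LmnA RNAi. A second long LAD after LmnA RNAi lay at chr2:174304353-179104662 (4.80 Mb), with the highest ratio of the long ones, 3.31 ± 0.06, where the LmnC and LmnB1 RNAi maps had 2.54 ± 0.05 and 2.23 ± 0.05. The longest stretch in LADs of no map was chr8:121902966-128190864 (6.29 Mb), with -2.25 ± 0.04, -2.86 ± 0.05 and -2.12 ± 0.04. Next were chr11:115012728-118314143 (3.30 Mb) and chr16:92293772-94970854 (2.68 Mb). Both kinds were chosen by the LAD lists, so their high and low ratios are a description.

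Between the LmnA and LmnC RNAi maps, which share the Dam-LmnB1 fusion, the ends differed by about as much as the rest of the genome. LmnA RNAi minus LmnC RNAi averaged 0.93 in the last 10 Mb (SD 0.65 over bins) and 0.98 in the rest (SD 0.67), and the ends had the larger difference on 9 of 19 chromosomes. In 1386 of 1881 bins (73.7%) the LmnA RNAi value exceeded the other by over 0.5, against 75.8% of all autosomal bins, and it was lower by more than 0.5 in 23 bins (1.22%), against 0.802%. The offset of whole maps sets most of these counts. With each map centred on its median autosomal bin, 13.1% were higher, against 15.6% of all bins, and 34.7% lower, against 32.4%. Without fragments read in 1 library only, 20.5% were higher, against 22.4% of all bins, and 0.106% lower, against 0.0752%. The shares of higher bins thus stayed close to the background in each scaling. By chromosome the mean difference of the end ran from 0.61 on chromosome 11 to 1.51 on chromosome 1, a wider range than that of the rest in the plot of map differences.

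Comparisons with the LmnB1 RNAi map gave the same kind of result. LmnA RNAi minus LmnB1 RNAi averaged 0.45 in the last 10 Mb and 0.46 in the rest, with 48.5% of bins higher by more than 0.5, against 48.7% of all bins, and 8.83% lower, against 8.24%. LmnC RNAi minus LmnB1 RNAi averaged -0.48 in the last 10 Mb and -0.52 in the rest, with 5.95% of bins higher, against 4.69%, and 48.1% lower, against 50.5%. Centred on the median bin, LmnA RNAi against LmnB1 RNAi had 14.7% of bins higher, against 13.7% of all bins, and 34.6% lower, against 33.4%, and LmnC RNAi against LmnB1 RNAi had 21.4% higher, against 19.6%, and 21.4% lower, against 24.3%. Without fragments read in 1 library only, the first comparison had 17.7% higher, against 16.7%, and 3.93% lower, against 2.55%, and the second 0.585% higher, against 0.597%, and 8.45% lower, against 10.4%. Bin by bin the maps ran closely together, with Pearson's r of 0.96 between LmnA and LmnC RNAi, 0.95 between LmnA and LmnB1 RNAi and 0.97 between LmnC and LmnB1 RNAi. These are descriptions over 1881 bins, which are neighbours along chromosomes and share their libraries.

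**Figure D5:**
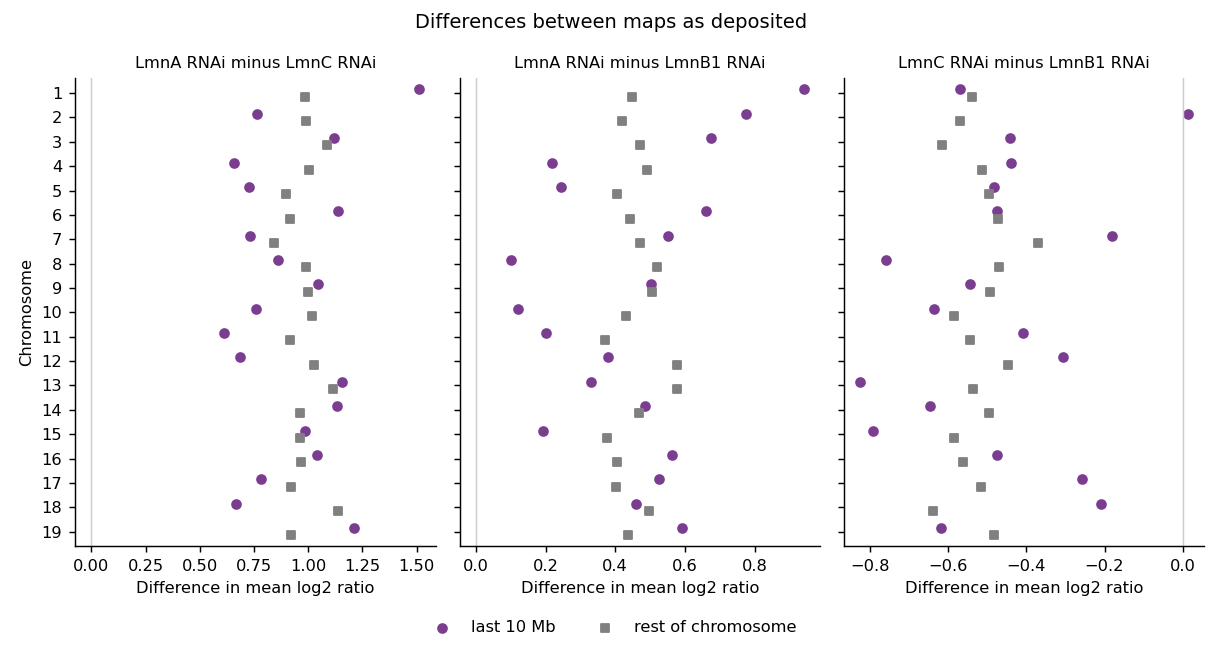
Difference between maps in mean log2 ratio, as deposited, for the last 10 Mb and the rest of each autosome, 1 panel per pair of maps (first-named minus second-named). Points are chromosomes; those of the last 10 Mb lie on either side of the rest, from 0.61 to 1.51 for LmnA RNAi minus LmnC RNAi.

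Where the LAD lists of the ends differed, LmnA RNAi mostly had the additional LADs, as in the rest of the autosomes. Stretches from 100 kb upward that only the LmnA RNAi list of the pair held numbered 58 (13.3 Mb), and the converse 8 (1.42 Mb). In all, sequence in LmnA RNAi LADs and outside those of LmnC RNAi made up 9.03% of the ends, against 10.7% of the rest, and the converse 1.86%, against 1.38%, so the ends followed the whole maps here. The longest were chr14:117360699-117934507 (0.574 Mb), with log2 ratios of -0.018 ± 0.13 under LmnA RNAi and -1.57 ± 0.13 under LmnC RNAi, and chr1:187642612-188212666 (0.570 Mb), with 1.30 ± 0.13 and -1.36 ± 0.12. The other 3 of the 5 longest, on chromosomes 10, 13 and 7, measured 0.480, 0.436 and 0.424 Mb and had 0.37, 0.83 and 0.22 after LmnA RNAi, against -1.39, -0.86 and -1.05 after LmnC RNAi. The converse stretches were weak in both maps: the longest, chr13:110837841-111163491 (0.326 Mb), had -0.20 ± 0.17 in the LmnA RNAi map and -0.55 ± 0.16 in the LmnC RNAi map. Of the next 4, those on chromosomes 11 and 4 also had the lower ratio in the LmnC RNAi map, that on chromosome 9 differed by far less than its SE, and that on chromosome 5 was the higher there, with -0.30 ± 0.23 in the LmnA RNAi map and 0.29 ± 0.25 in the LmnC RNAi map. As deposited, the ratios thus leaned against the lists on chromosomes 13, 11 and 4, though by little. On chromosomes 11 and 4 they were -0.40 ± 0.19 and -0.11 ± 0.19 after LmnA RNAi, and -0.61 ± 0.20 and -0.45 ± 0.26 after LmnC RNAi. Without fragments read in 1 library only, chromosome 13 had -0.45 and -0.47, chromosome 11 -0.44 and -0.42, and chromosome 4 -0.23 and -0.40. The direction also turned with the offset of the maps. Centred on the median bin, those 3 stretches had -1.42, -1.61 and -1.32 in the LmnA and -0.61, -0.67 and -0.51 in the LmnC RNAi map.

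Against LmnB1 RNAi, 61 stretches (15.7 Mb) were in LADs of LmnA RNAi alone of the pair, 5.20 Mb of them in the outermost 2 Mb, and 7 (1.18 Mb) were in LADs of LmnB1 RNAi alone, none in the outermost 2 Mb. Sequence in LADs of LmnA RNAi and not of LmnB1 RNAi made up 9.98% of the ends, close to 9.79% of the rest, and 15.7% of the outermost 2 Mb. The converse made up 1.76% of the ends, against 1.54% of the rest. In net LAD share the LmnA RNAi map stood 14.8 points above LmnB1 RNAi in the outermost 2 Mb, against 8.24 points in the rest. Without chromosomes 6, 9 and 11 these differences were 9.51 and 8.47 points. By the cut-off on the log2 ratio, over all chromosomes, they were 8.09 and 8.31 points. The longest stretch of LmnA RNAi, chr6:148137624-149282088 (1.14 Mb), had log2 ratios of 1.26 ± 0.09 after LmnA RNAi and -0.15 ± 0.08 after LmnB1 RNAi. The next, chr9:122288578-123012532 (0.724 Mb), had 0.14 ± 0.12 and -0.32 ± 0.09. Between LmnC and LmnB1 RNAi, 27 stretches lay in each direction, but their place differed: those of LmnC RNAi (7.18 Mb) had 3.93 Mb in the outermost 2 Mb, and those of LmnB1 RNAi (5.35 Mb) had 0.278 Mb there. Sequence of LmnC RNAi LADs outside those of LmnB1 RNAi made up 5.24% of the ends and 11.9% of the outermost 2 Mb, against 3.29% of the rest. The converse made up 4.18% and 2.30%, against 4.33% of the rest. The longest of LmnC RNAi, chr6:148184171-149253294 (1.07 Mb), lay within the chromosome 6 stretch just given. Its ratio was -0.34 ± 0.08 in the LmnC and 0.012 ± 0.08 in the LmnB1 RNAi map. The next was chr9:122440530-123016477, where the ratio was -0.61 ± 0.11 in the LmnC and -0.21 ± 0.11 in the LmnB1 RNAi map. Centred on the median bin, the chromosome 6 stretch had -0.40 and -0.52, and that of chromosome 9 had -0.67 and -0.74. The longest of LmnB1 RNAi, chr15:93548237-94030343 (0.482 Mb), had -1.11 ± 0.14 after LmnC RNAi and 0.13 ± 0.12 after LmnB1 RNAi.

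Single bins of highest ratio clustered on chromosome 2. The bin chr2:176100001-176200000 had 4.78 ± 0.56, 3.33 ± 0.45 and 2.76 ± 0.46 in the LmnA, LmnC and LmnB1 RNAi maps (SE over 296 fragments), and 4 of the 5 bins of highest mean over maps lay on chromosome 2 between 174900001 and 176900000. The other was chr5:146600001-146700000, with 3.99, 3.80 and 2.96. All 5 lay wholly in LADs of all maps. Without fragments read in 1 library only, chr2:176100001-176200000 had 1.21, 1.03 and 0.54 in the 3 maps, the lowest of the 5 in each. Its rank thus rested in part on those fragments. The lowest bins lay on 5 different chromosomes, 14, 8, 4, 15 and 16, and in LADs of no map. The lowest by the mean of maps, chr14:120700001-120800000, had -4.26 ± 0.30, -5.49 ± 0.42 and -4.46 ± 0.34. They were ranked by their mean over the maps.

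For LmnA RNAi minus LmnC RNAi, the largest differences of single bins were 3.48 at chr1:188300001-188400000 and 3.46 at chr8:130000001-130100000. In the chromosome 8 bin the ratio was -0.13 ± 0.30 in the LmnA and -3.59 ± 0.40 in the LmnC RNAi map, and it lay in LADs of neither map. The 3 that followed, on chromosomes 19, 19 and 3, differed by 3.07, 3.04 and 2.98. The most negative was -1.14 at chr11:116100001-116200000, with -3.59 ± 0.41 in the LmnA and -2.44 ± 0.28 in the LmnC RNAi map. Of the 5 most negative, 4 lay outside the LADs of LmnA RNAi, and the other, chr12:115200001-115300000, lay in LADs of all maps with 2.10 ± 0.40 and 3.06 ± 0.38. With 158 to 333 fragments in each bin named by rank, single-bin values are coarse.

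For the other pairs the bin of largest LmnA RNAi minus LmnB1 RNAi was the same chromosome 1 bin, at 3.66, and the most negative was chr10:127600001-127700000 at -2.02. For LmnC RNAi minus LmnB1 RNAi the largest was 1.35 at chr11:113300001-113400000, with 0.026 ± 0.21 in the LmnC and -1.33 ± 0.24 in the LmnB1 RNAi map, and the most negative was -2.56 at chr7:148100001-148200000, with -4.70 ± 0.55 and -2.14 ± 0.31. The chromosome 11 bin was in a LAD after LmnC RNAi and not after LmnB1 RNAi.

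The fragments of the ends were much like those of the rest. Their median length was 269 bp, against 260 bp, and a bin held 243 ± 26.3 of them, against 249.6 ± 27.7 (mean and SD over bins). Fragments read in the fusion library only made up 16.1%, 12.2% and 13.1% in the LmnA, LmnC and LmnB1 RNAi maps, against 16.9%, 12.9% and 14.1% in the rest. Fragments read in the Dam-only library only made up 8.93%, 12.7% and 10.99%, against 8.29%, 12.1% and 10.2%. Total reads are unknown, since ratios were deposited, so no counting interval is given. As a measure of precision within a map, bin means from odd and even fragments correlated with r of 0.96, 0.97 and 0.96, and no 10 Mb window differed by more than 0.12 between them. That is far below the range of the chromosome ends within a map. The odd and even fragments share libraries and alternate along the genome, so their agreement says nothing about differences between cultures.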

How the data were processed

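Members and lists were chosen with earlier results of these data known. Reads were aligned with Bowtie to mm9, per the submitters' processing notes; these notes and the labels name no read filter, ratio step or LAD caller. The authors deposited a log2 value for each GATC fragment and a list of LADs per map. As inferred from the steps of the values, each is a log2 ratio of fusion over Dam-only plus a constant per map, with a small number added to each library, which would give a fragment read in 1 library a size above 12. Such fragments weigh heavily in means, and fragments without reads would sit at the constant.

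From these, length-weighted means were computed over 100 kb bins, and the LAD share as the share of fragment length with its middle in a LAD (python 3.11.15, numpy 2.4.6, pandas 2.3.3). Binning was tested on simulated data. The regions named are the 3 ends richest and the 3 poorest in LADs by the mean of maps, the 3 longest LADs of a map and stretches in all or no map, the longest stretches and most different bins between maps (5 for LmnA against LmnC RNAi in each direction, 2 for other pairs), and the 5 highest and 5 lowest bins; not all are printed. Final LADs and the chromosomes singled out in the outermost 2 Mb were chosen after their values were seen. A change of 0.5 on the log2 scale counted as higher or lower. Gene names and promoters are from RefSeq on GRCm38.p6, used for names and order only. Each group had 1 library, so there was no test. Alternatives covered bin size, coverage, weights, centring, fragments left out, LAD length and the limits of the windows.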

Additional observations from a re-analysis of the deposited data

How the results depend on the processing

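Each group had 1 library, so no library could be left out. No paired analysis was possible because each group holds 1 sample. Under 20 other settings, 181 values were counted as kept, 24 shares of bins moved further and 8 values turned. Kept means the same direction and a move below the SD over autosomes, or, for shares of bins, below 1.5 times. Every difference was smaller than this SD, so a difference could shrink to almost nothing and still count as kept. Centring each map cannot change a difference between ends and rest, so those values were kept by construction. With the rest limited to 10 to 30 Mb from the end, an alternative chosen after seeing the data, the log2 difference of the last 10 Mb turned to 0.066, 0.087 and 0.033 in the LmnA, LmnC and LmnB1 RNAi maps, and the LAD share with LmnC RNAi to 2.28 points, since the next 20 Mb are as poor in LADs. LmnA RNAi minus LmnB1 RNAi, -0.011 between ends and rest, turned to 0.024 with quantile normalization, 0.056 with equal fragment weights, 0.011 without chromosome 8 and 0.034 against 10 to 30 Mb. Without chromosome 8, also chosen after seeing the data, the LAD share differences shrank to -3.36, -1.63 and -3.73 points. Within quartiles of fragments per bin they were -4.26, -2.00 and -4.05 points, and with the last 5 Mb as the window that of LmnC RNAi was -1.17. As medians over bins, the log2 differences of LmnC and LmnB1 RNAi were -0.34 and -0.41. Shares of bins past 0.5 followed the scaling. For LmnA against LmnC RNAi, 73.7% higher became 20.5% without fragments read in 1 library only, 13.1% with centring and 17.01% with quantile normalization, and 1.22% lower became 0.106%, 34.7% and 23.8%, 4.57% with equal weights, 2.95% in 50 kb bins and 0.106% in 200 kb bins. For LmnA against LmnB1 RNAi, 48.5% higher became 17.7%, 14.7% and 22.9%, and 8.83% lower became 3.93%, 34.6% and 19.7%, under the same first 3 settings. For LmnC against LmnB1 RNAi, 5.95% higher became 0.585%, 21.4% and 19.9%, then 20.6% with equal weights, 9.58% in 50 kb bins and 3.08% in 200 kb bins, and 48.1% lower became 8.45%, 21.4% and 12.9%. The cause of these moves was not tested beyond the change of scale itself. The excess of LADs in the outermost 2 Mb over the next 8 Mb kept its direction, at 11.5 to 14.3, 13.2 to 16.7 and 3.70 to 10.6 points in the 3 maps, its LmnB1 RNAi value of 6.15 reaching 10.6 by the cut-off on the log2 ratio. The number of reads behind each ratio is unknown, which limits what single bins show.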
